A study of Mus musculus with 5 samples.

Results

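Interferon-induced genes were followed through a dilution of adult mouse colon RNA into whole newborn mouse RNA. The set was a list of 39 named genes whose transcription interferons raise. A gene counted as measured where at least 1 probe set of the array was annotated to it and to no other gene, and the probe set with the highest mean signal over the 5 arrays stood for the gene. By this rule 35 genes were measured, of 12393 in all. The other 4, Isg15, Ifi44, Xaf1 and Ddx58, had no probe set of their own in the annotation used here.

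Colon at 100% was RNA of adult C57BL/6 colon taken at 8 weeks, colon at 0% was RNA of whole C57BL/6 mice aged 1 day, and the mixtures held colon RNA at 25%, 50% and 75% of the total. Each of the RNA stocks came from several pooled animals, and the labels name no treatment. There was 1 array per mix, hybridised after 2 rounds of T7 amplification from 10 ng, and no mix was repeated. Tissue and age therefore differed together and cannot be told apart, and the p-values measure the technical spread of 5 arrays together with any bend of the signals, not the spread between mice. In bulk RNA, fewer cells of a type and less RNA per cell cannot be told apart either.

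Interferons are secreted proteins through which cells warn each other of infection. Type I interferons act through a receptor whose kinases activate the transcription factor ISGF3, which contains Stat2 and Irf9 and binds the interferon-stimulated response element (ISRE). Interferon gamma, made mainly by T cells and natural killer cells, acts through another receptor and on genes that carry the gamma-activated site (GAS). Many genes answer to both, and in the gut a low level of interferon signalling is kept up by the resident microbes. The genes were therefore classed by the interferon usually named as their main inducer, with 25 measured as type I-induced, 7 as gamma-induced and 3, the Ifitm genes, as answering to either.

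The letters of both elements were looked for in RefSeq promoter windows of 300 bases, which reach from upstream of a transcript's start to just past it. ISRE was searched as GAAA, any 2 bases and GAAA again, on both strands, and GAS as TTCNNNGAA, which reads alike on both strands. Windows were found for 27 of the 35 genes. An ISRE match lay in a window of 14 of the 27 (51.9%), against 3.99% of all 27025 genes with windows, and a GAS match in 12 (44.4%), against 9.55%. Of all 32851 windows, 3.44% held an ISRE match and 8.30% a GAS match. The 7 windows below were chosen, among windows that hold a match, to set genes whose signal rose beside genes whose signal did not. Capitals mark the matches to either element.
Irf1, GRCm38.p6 chr11:53769764-53770063, plus strand: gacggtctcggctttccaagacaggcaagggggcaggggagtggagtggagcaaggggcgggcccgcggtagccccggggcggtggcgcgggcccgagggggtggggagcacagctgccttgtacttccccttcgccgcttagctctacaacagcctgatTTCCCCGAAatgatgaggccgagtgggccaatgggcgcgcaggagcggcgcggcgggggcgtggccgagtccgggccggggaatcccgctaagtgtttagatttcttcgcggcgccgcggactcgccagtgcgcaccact
Irf8, GRCm38.p6 chr8:120736108-120736407, plus strand: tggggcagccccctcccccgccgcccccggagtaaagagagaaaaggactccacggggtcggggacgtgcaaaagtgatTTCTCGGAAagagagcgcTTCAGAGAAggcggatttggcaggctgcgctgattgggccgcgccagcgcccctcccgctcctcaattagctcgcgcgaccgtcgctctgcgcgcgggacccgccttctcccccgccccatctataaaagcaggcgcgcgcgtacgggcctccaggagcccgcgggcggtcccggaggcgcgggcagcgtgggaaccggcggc
Ifit1, GRCm38.p6 chr19:34640639-34640938, plus strand: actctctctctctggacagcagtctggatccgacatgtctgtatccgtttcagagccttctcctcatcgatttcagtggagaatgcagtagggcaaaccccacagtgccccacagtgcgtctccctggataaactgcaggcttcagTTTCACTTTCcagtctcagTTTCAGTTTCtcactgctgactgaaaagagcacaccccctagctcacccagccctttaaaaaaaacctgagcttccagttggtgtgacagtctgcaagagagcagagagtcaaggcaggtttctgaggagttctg
Oas1a, GRCm38.p6 chr5:120907476-120907775, minus strand: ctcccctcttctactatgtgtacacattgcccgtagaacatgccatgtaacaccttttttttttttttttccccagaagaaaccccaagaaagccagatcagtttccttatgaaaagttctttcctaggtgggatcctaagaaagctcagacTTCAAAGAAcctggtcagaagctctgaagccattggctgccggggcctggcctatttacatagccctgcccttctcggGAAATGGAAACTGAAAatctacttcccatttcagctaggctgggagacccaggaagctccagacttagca
Igtp, GRCm38.p6 chr11:58199306-58199605, plus strand: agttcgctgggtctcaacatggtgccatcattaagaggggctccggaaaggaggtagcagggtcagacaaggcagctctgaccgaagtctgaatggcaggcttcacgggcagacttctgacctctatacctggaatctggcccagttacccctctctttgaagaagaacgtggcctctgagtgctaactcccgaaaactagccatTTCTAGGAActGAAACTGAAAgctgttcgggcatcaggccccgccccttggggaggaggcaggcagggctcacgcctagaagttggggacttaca
Rsad2, GRCm38.p6 chr12:26456403-26456702, minus strand: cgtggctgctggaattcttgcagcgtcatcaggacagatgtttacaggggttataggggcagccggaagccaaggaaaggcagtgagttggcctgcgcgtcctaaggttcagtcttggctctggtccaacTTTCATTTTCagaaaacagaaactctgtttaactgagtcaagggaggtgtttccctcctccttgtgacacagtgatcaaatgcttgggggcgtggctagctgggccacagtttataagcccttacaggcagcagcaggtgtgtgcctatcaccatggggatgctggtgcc
Ifitm2, GRCm38.p6 chr7:140955912-140956211, minus strand: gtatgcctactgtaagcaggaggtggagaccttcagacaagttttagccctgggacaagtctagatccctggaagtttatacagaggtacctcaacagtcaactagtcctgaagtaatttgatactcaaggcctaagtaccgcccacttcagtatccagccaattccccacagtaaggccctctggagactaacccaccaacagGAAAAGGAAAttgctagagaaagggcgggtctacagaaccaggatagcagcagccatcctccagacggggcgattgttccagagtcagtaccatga
The window of Irf1 shown held 1 GAS match, TTCCCCGAA, at bases 161 to 169 counted from the 5′ end of the window. That of Irf8 held 2. Irf1 and Irf8 each had a further window, not shown, with no match to either element. Ifit1 had 2 ISRE matches, Oas1a 2 that overlap each other and 1 GAS match, and Igtp an ISRE and a GAS match close together. The windows of Rsad2 and Ifitm2, the genes that fell, each held 1 ISRE match. Among genes with windows, an ISRE match was present in 3 of 11 that rose, 2 of 2 that fell and 9 of 14 that did neither. A GAS match was present in 4 of 11, 0 of 2 and 8 of 14 of them. The windows of Irf7, Oasl2, Trim25 and Lgals3bp, which rose, held no match to either element. By class, ISRE matches lay in 8 of 18 type I-induced, 4 of 6 gamma-induced and 2 of 3 Ifitm genes, and GAS matches in 8, 3 and 1 of them. A match is a description of the letters and not a measured binding site.

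By the test described next, 14 of these genes were brighter in colon than in the newborn and 2 were brighter in the newborn. The other 19 did not pass it, which does not mean that their signals were equal. Below, a gene rose or fell where its log2 signal changed along the colon share with an adjusted p under 0.05 in limma's test, adjusted over all 22626 probe sets, and the slope is the fitted log2 difference between colon and whole mouse. Of the 35 genes, 14 rose (40.0%) and 2 fell (5.71%), against 9.80% and 14.5% of all 12393 genes. Another 13 had a positive slope without passing the test, and 27 of 35 slopes were positive, against 48.8% over all genes. At an unadjusted limma p under 0.05, 21 of the 35 rose and 4 fell, as did 2451 and 2662 of all 12393 genes. The median slope was 0.66 log2, against -0.01 over all genes, and the genes ranged from -1.17 to 2.15. Between the undiluted RNAs, 14 genes were at least 2-fold higher in colon (9.26% of all genes) and 1, Ifitm2, was at least 2-fold higher in whole mouse (10.4% of all genes). The signal was higher at each of the 4 steps of colon share in 10 genes (8.66% of all genes), all of which rose, and lower at each step in 1, Bst2 (12.1% of all genes), which did not pass. Over all probe sets 1953 rose and 2456 fell, a split that became 3148 and 2325 once each array was centred on its median.

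The calls depended on single arrays. Leaving out the arrays one at a time, in order of colon share, left 4, 11, 4, 0 and 1 genes that rose, and 0 to 1 that fell. In the same fits 2.16%, 5.77%, 2.17%, 0.98% and 0.74% of all probe sets rose, against 8.63% with every array. None of the 16 genes called passed in all 5 of these fits, although all 16 kept their direction. Irf1 passed in 4 of them, missing the threshold without the 75% mixture (adjusted p = 0.0614). Without the whole mouse array the slopes of 7 called genes were smaller by over 1.5 times, at 1.21 for Ifih1, 1.33 for Irf8, 1.01 for Lgals3bp, 0.98 for Parp14, 0.72 for Oasl2, 0.40 for Adar and -0.61 for Ifitm2. Slopes of Oas1a, Gbp2 and Irgm1, which had not passed, were 1.06, 0.69 and 0.79 there.

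**Figure D1:**
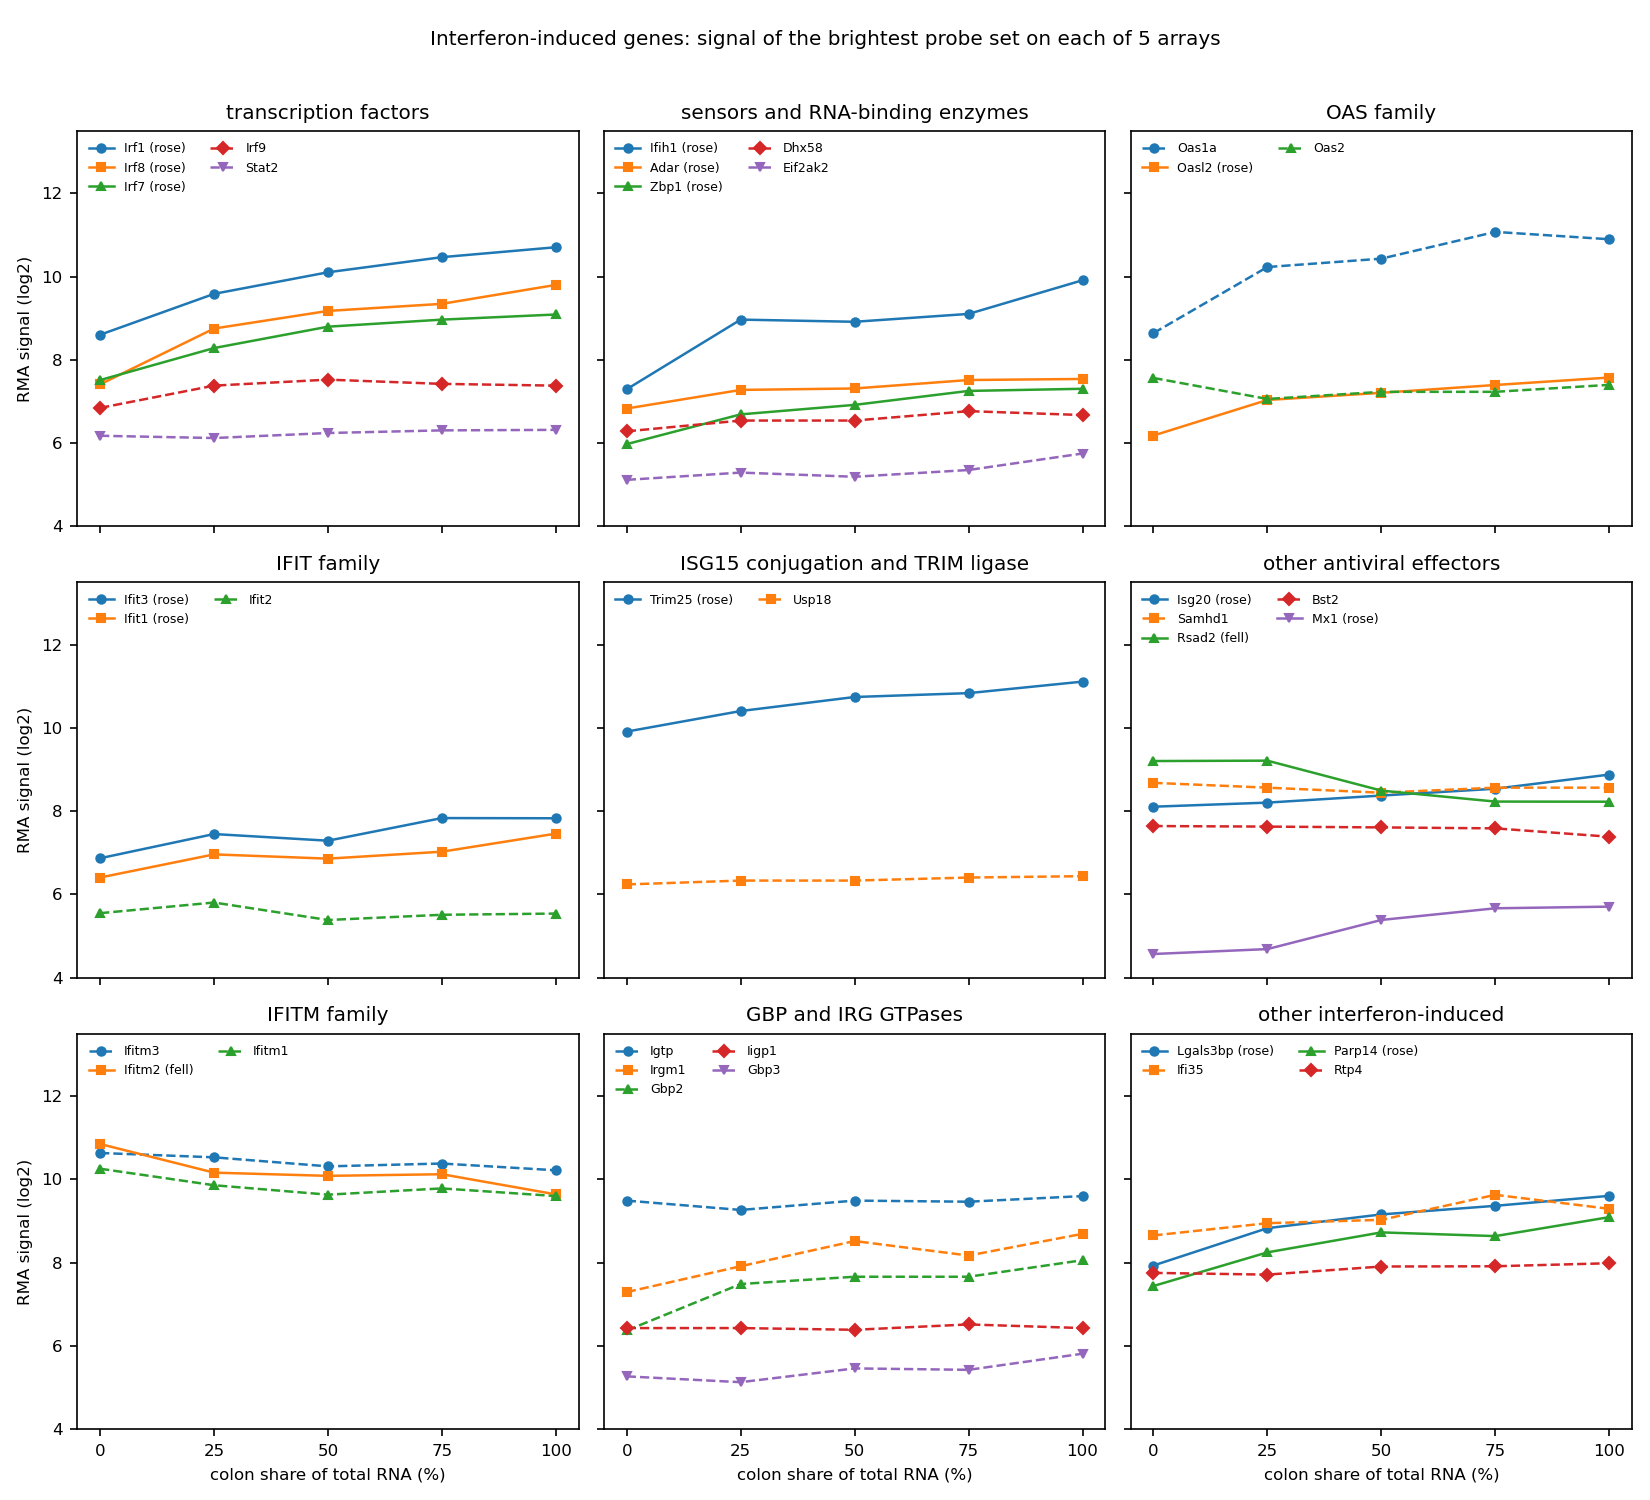
RMA signal (log2) of the brightest probe set of each interferon-induced gene on the 5 arrays, against the colon share of total RNA (%), in 9 panels by role. Solid lines are genes that rose or fell and dashed lines genes that did not pass the test. Irf1, Irf7 and Irf8 climb at every step while Stat2 stays between 6.12 and 6.32, and the 3 Ifitm genes slope downward.

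Of the 5 transcription factors 3 rose. Values on the 5 arrays are given in order of rising colon share from 0% to 100%, as log2 signal. Irf1, a factor induced by interferon gamma that drives antigen-presentation genes, had 8.60, 9.59, 10.11, 10.47 and 10.71 (slope 2.04 ± 0.27 SE, adjusted p = 0.0128). Irf8, a factor of myeloid and B cell development, had 7.41, 8.75, 9.18, 9.35 and 9.80 (slope 2.15 ± 0.39, adjusted p = 0.0248). Irf7, which amplifies type I interferon production, had 7.51, 8.28, 8.80, 8.97 and 9.09 (slope 1.53 ± 0.27, adjusted p = 0.0234). In all 3 the signal was higher at each step, and the undiluted difference was 4.30-fold for Irf1, 5.24-fold for Irf8 and 2.98-fold for Irf7.

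Irf9 and Stat2, which are part of ISGF3, did not pass. Irf9 had 6.85, 7.38, 7.53, 7.42 and 7.38, with the whole mouse array alone below the others (slope 0.45 ± 0.24, adjusted p = 0.284). Stat2 had 6.18, 6.12, 6.24, 6.31 and 6.32 (slope 0.19 ± 0.10, adjusted p = 0.275), and its other probe set was flat as well (slope 0.20).

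Among sensors of foreign RNA and enzymes that bind double-stranded RNA, 3 of 5 rose. Ifih1, the cytoplasmic RNA sensor MDA5, had 7.30, 8.97, 8.92, 9.10 and 9.91 (slope 2.15 ± 0.50, adjusted p = 0.0438). Its undiluted difference of 6.14-fold was the largest of the 35 genes, and its 3 mixtures lay close together between both undiluted arrays. Zbp1, a sensor of Z-form nucleic acids that can start cell death, had 5.98, 6.69, 6.92, 7.25 and 7.31 (slope 1.29 ± 0.22, adjusted p = 0.0222). Adar, which edits adenosine to inosine in double-stranded RNA, had 6.83, 7.28, 7.31, 7.52 and 7.54 (slope 0.66 ± 0.16, adjusted p = 0.0453). Both rose at every step, Adar by the smallest slope of any gene that rose. Dhx58, a regulator of RNA sensing also called LGP2, lay between 6.28 and 6.77 (adjusted p = 0.104). Eif2ak2, the kinase PKR that halts translation, was dim, with 5.12 to 5.75 (slope 0.53 ± 0.17, adjusted p = 0.0943).

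Members of the OAS family, which make or resemble the enzymes that make oligoadenylates to switch on RNase L, differed from each other. Oas1a had 8.64, 10.23, 10.43, 11.08 and 10.90, so every array with colon RNA lay more than 1 log2 unit above whole mouse. Its slope of 2.14 ± 0.53 was as large as those of the factors above, but the adjusted p of 0.0513 missed the threshold. It was 0.0270 with each array centred on its median, and it ran from 0.0270 to 0.0695 over the planned settings that kept all arrays. Oasl2, an OAS-like protein with ubiquitin-like domains, had 6.18, 7.04, 7.21, 7.40 and 7.58 and rose at every step (slope 1.26 ± 0.26, adjusted p = 0.0329). Oas2 had 7.57, 7.06, 7.23, 7.23 and 7.40 (slope -0.06 ± 0.23, adjusted p = 0.891), with its highest value in whole mouse. That slope turned to 0.02 once the arrays were centred.

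The Ifit genes lie next to each other on chromosome 19 and encode proteins that bind viral RNA ends. Ifit1 had 6.41, 6.96, 6.86, 7.03 and 7.46 (slope 0.87 ± 0.20, adjusted p = 0.0428). Ifit3 had 6.87, 7.45, 7.29, 7.84 and 7.83 (slope 0.92 ± 0.22, adjusted p = 0.0466). Both rose, with the whole mouse array lowest and the 50% mixture below the 25% mixture. Ifit2 had 5.55, 5.81, 5.39, 5.51 and 5.54, a range with no direction (slope -0.13 ± 0.19, adjusted p = 0.711).

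Trim25, a ubiquitin ligase that acts on RNA sensors, had 9.91, 10.41, 10.75, 10.84 and 11.12 (slope 1.13 ± 0.15, adjusted p = 0.0132). It was higher at every step. Usp18, the protease that removes Isg15 from proteins and damps the type I receptor, lay between 6.24 and 6.44 (slope 0.19 ± 0.09, adjusted p = 0.236).

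The other antiviral effectors went in different directions. Isg20, an RNA exonuclease, had 8.11, 8.21, 8.38, 8.54 and 8.88 (slope 0.75 ± 0.12, adjusted p = 0.0187) and rose at every step. Mx1 had 4.57, 4.69, 5.39, 5.67 and 5.71 (slope 1.30 ± 0.21, adjusted p = 0.0196). Mx1 encodes an antiviral GTPase whose gene is known to carry a deletion in C57BL/6 mice that leaves no working protein, and its mean lay under the lower quartile of all probe sets (5.47), so its call rests on dim signals. Bst2, tetherin, which holds budding virus at the cell surface, lay between 7.39 and 7.64, lowest in colon (slope -0.22 ± 0.11, adjusted p = 0.245).

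Rsad2, viperin, was a type I-induced gene that fell. Its brightest probe set had 9.21, 9.22, 8.50, 8.23 and 8.23 (slope -1.17 ± 0.23, adjusted p = 0.0297), with the 2 arrays poorest in colon above the other 3. The 2 remaining Rsad2 probe sets were dimmer, with means of 5.75 and 5.08, had slopes of -0.27 and 0.15 and did not pass (adjusted p = 0.341 and 0.502). The fall therefore stood on 1 of 3 probe sets.

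The Ifitm genes encode small membrane proteins that block virus entry. Their signals were high on all arrays and lowest in undiluted colon, though only Ifitm2 passed the test. Ifitm2 had 10.85, 10.16, 10.08, 10.12 and 9.64 and fell (slope -0.98 ± 0.24, adjusted p = 0.0480). Ifitm1 had 10.26, 9.86, 9.63, 9.78 and 9.60 (slope -0.56 ± 0.19, adjusted p = 0.104). Ifitm3 had 10.63, 10.53, 10.31, 10.38 and 10.22 (slope -0.39 ± 0.11, adjusted p = 0.0735). In each, whole mouse was the highest array and colon the lowest. Undiluted Ifitm2 was 0.43 times as bright in colon as in whole mouse, the lowest ratio of the 35 genes. All 3 slopes stayed negative in every setting tried. The genes are neighbours on chromosome 7 and resemble each other in sequence, so probes may share signal between them.

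The GTPases that guard against vacuole-dwelling microbes, induced mainly by interferon gamma, gave no call in the 5 brightest probe sets by limma's adjusted p. In 3 of them the unadjusted p was under 0.05 with a positive slope, as in 2451 of all 12393 genes. Irgm1 had 7.29, 7.91, 8.52, 8.17 and 8.69 (slope 1.22 ± 0.32, adjusted p = 0.0557). Gbp2, a guanylate-binding protein, had 6.37, 7.49, 7.66, 7.66 and 8.06 (slope 1.42 ± 0.36, adjusted p = 0.0521). Both were lowest in whole mouse and highest in colon, and both passed with centred arrays and with dim probe sets left out. Over the planned settings that kept all arrays the adjusted p ran from 0.0308 to 0.112 for Irgm1 and from 0.0231 to 0.0613 for Gbp2. Igtp, or Irgm3, had 9.49, 9.27, 9.49, 9.46 and 9.60 (adjusted p = 0.506), and Iigp1, or Irga6, lay between 6.39 and 6.51 (adjusted p = 0.862). Gbp3 was dim, with 5.13 to 5.81 (slope 0.55 ± 0.18, adjusted p = 0.0913). The undiluted signal in colon was 3.23 times that in whole mouse for Gbp2, 2.64 times for Irgm1 and 1.08 times for Igtp, on single arrays and with no test between the genes.

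Of the remaining genes, Lgals3bp and Parp14 rose. Lgals3bp, a secreted galectin-binding glycoprotein, had 7.93, 8.83, 9.16, 9.36 and 9.60 (slope 1.55 ± 0.26, adjusted p = 0.0215). Parp14, an ADP-ribosyltransferase, had 7.44, 8.25, 8.73, 8.64 and 9.09 (slope 1.48 ± 0.28, adjusted p = 0.0278). Both were about 3-fold brighter in colon, at 3.19-fold and 3.15-fold. Ifi35, which pairs with Nmi, had 8.65, 8.95, 9.03, 9.63 and 9.29, highest in the 75% mixture (slope 0.78 ± 0.24, adjusted p = 0.0865). Rtp4, a receptor-transporting protein, lay between 7.71 and 7.99 (adjusted p = 0.152).

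Set side by side, type I-induced and gamma-induced genes overlapped over most of their range. Of 25 type I-induced genes, 12 rose and 1 fell, with a median slope of 0.75 and a range from -1.17 to 2.15. Of 7 gamma-induced genes, 2 rose and none fell, with a median slope of 1.22 and a range from 0.04 to 2.15. At least a 2-fold higher signal in undiluted colon was seen in 10 of 25 and 4 of 7 genes, and the median undiluted difference was 0.71 and 1.40 log2. The median slope was higher in the gamma class, but the gap narrowed to 0.79 for gamma-induced against 0.65 for type I-induced genes without the whole mouse array. The share of genes that rose had no stable order. It was higher in the type I class as given above (48.0% and 28.6%), whereas 14 of 25 type I-induced and 4 of 7 gamma-induced genes rose with centred arrays and also with the mean of a gene's probe sets, and 8 of 25 and 3 of 7 rose without the 25% mixture. No test of the difference between the classes was made. Within the gamma class the slopes were spread, with Irf8, Irf1, Gbp2 and Irgm1 above 1.2, Gbp3 at 0.55, and Igtp and Iigp1 at 0.17 and 0.04. Without the whole mouse array Gbp2 and Irgm1, at 0.69 and 0.79, no longer lay above Gbp3, at 0.81.

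**Figure D2:**
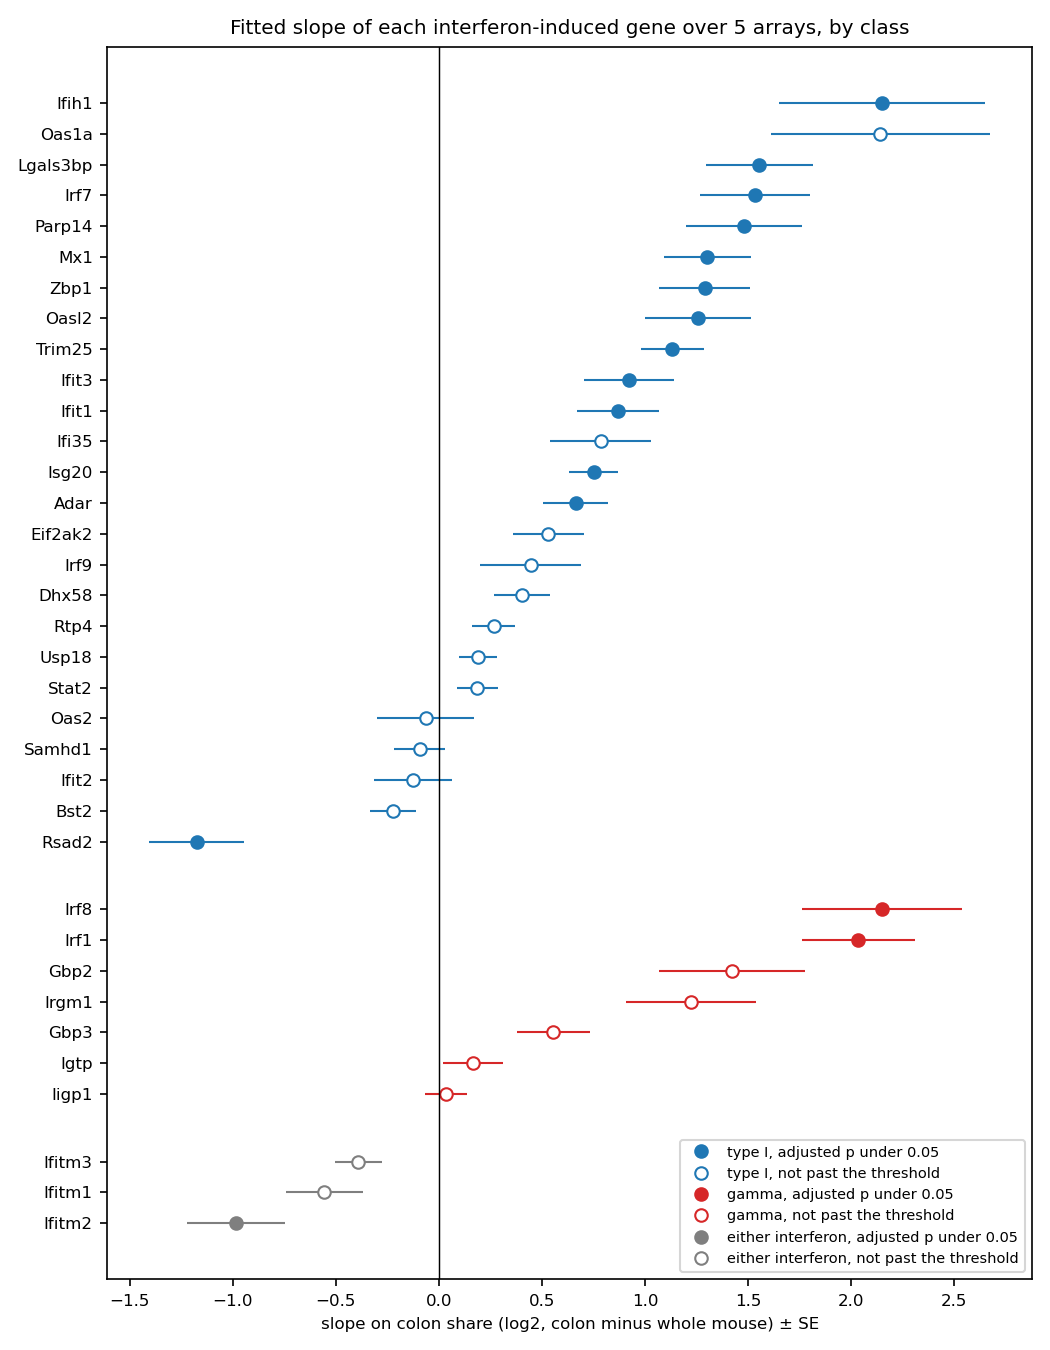
Slope on colon share (log2, colon minus whole mouse) with its SE for each of the 35 genes over 5 arrays, by class; filled points passed the adjusted p of 0.05. The type I class runs from Ifih1 at 2.15 to Rsad2 at -1.17, the gamma class from Irf8 at 2.15 to Iigp1 at 0.04, and the 3 Ifitm genes all lie below 0.

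Different probe sets of 1 gene did not always give the same answer. For 11 genes there were several, 27 in all, and in 3 of these genes (Rsad2, Samhd1 and Iigp1) the slopes differed in sign. Samhd1, which breaks down the nucleotides viruses need, was represented by a probe set with 8.68, 8.57, 8.45, 8.57 and 8.57 (slope -0.09 ± 0.12, adjusted p = 0.677). A dimmer Samhd1 probe set had 7.31, 7.92, 8.15, 8.27 and 8.50 and rose at every step (slope 1.09 ± 0.18, adjusted p = 0.0212). The mean of its 4 probe sets had a slope of 0.35 (adjusted p = 0.0496). The second Gbp2 probe set had 7.78 in colon, against 5.87 in whole mouse, and rose (slope 1.67 ± 0.31, adjusted p = 0.0264). The chosen probe sets of Gbp2 and Trim25 carry the array maker's marks for probes shared with other transcripts. Among genes named below, those of Ifna1, Irf2, Irf3, Tlr3, Tbk1 and Igha carry them too. Both probe sets of Irf8 and of Zbp1 rose, as did 2 of 3 of Trim25. Of the 16 probe sets that were not the brightest of their gene, 5 rose and none fell, against 8.63% and 10.9% of all probe sets.

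**Figure D3:**
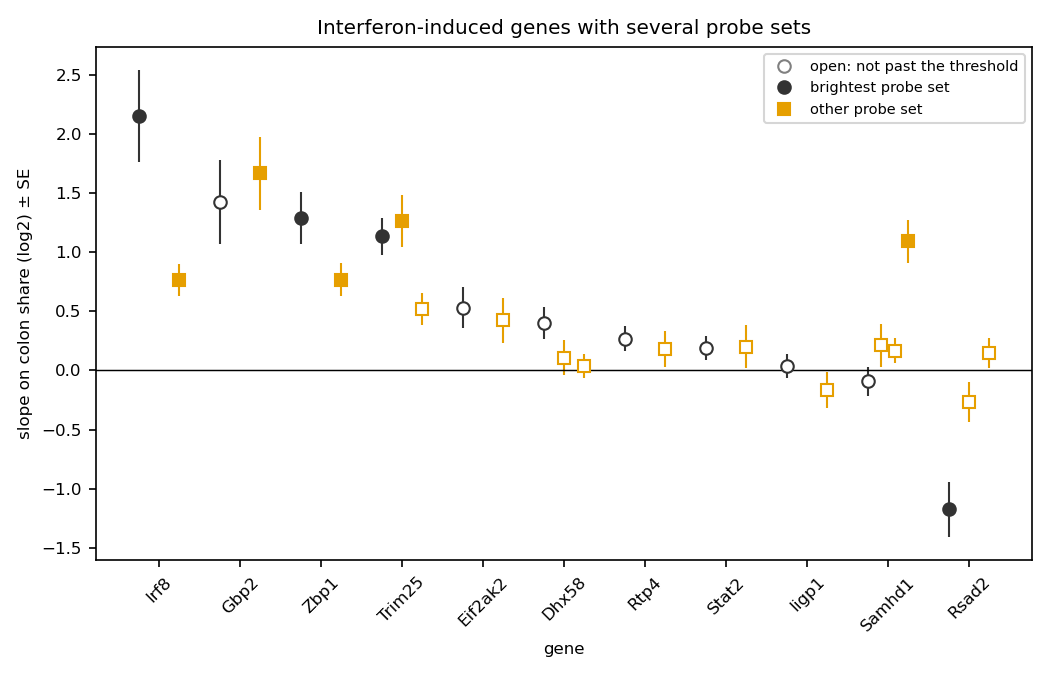
Slope on colon share (log2) with its SE for every probe set of the 11 genes with several; circles are the brightest probe set and squares the others, filled where the adjusted p was under 0.05. Gbp2 and Samhd1 passed in a dimmer probe set only, and Rsad2 in its brightest only.

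The mixtures were next set against what mixing should give. Since RNA adds up on the linear scale, the signal expected in each mixture is the share-weighted mean of the linear intensities of the undiluted arrays. Of the 14 interferon-induced genes at least 2-fold higher in undiluted colon, 13 lay above this value in the 25% mixture. So did 1701 of all 1853 probe sets with such a difference. The median deviation of the 14 genes was 0.23 log2 in the 25% mixture, 0.15 at 50% and -0.01 at 75%. The same medians over all 1853 probe sets at least 2-fold higher in colon were 0.33, 0.17 and -0.02, so the upward bend at low colon share was also seen outside the interferon genes. The colon share read back from the 14 genes had medians of 37.8%, 62.4% and 73.4% in the 25%, 50% and 75% mixtures. The same reading over all such probe sets gave 43.1%, 62.6% and 73.2%.

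The widest deviations belonged to a few genes. Oas1a lay 0.63 log2 above its mixed value at 25% colon and 0.49 above at 75%, where it was brighter than in undiluted colon. Ifih1 lay 0.48 above at 25% and -0.47 from its mixed value at 75%. Ifitm2 lay at -0.47 in the 25% mixture, falling faster than mixing gives. For the 3616 probe sets that differed by 2-fold or more between colon and whole mouse, the SD of such deviations was 0.37, 0.32 and 0.27 log2 in the 3 mixtures. At 25% colon, probe sets at least 2-fold higher in colon had a median of 0.33 with an SD of 0.27. Oas1a lay just over 1 SD above that median and Ifih1 within 1 SD of it. At 75% colon the same probe sets had a median of -0.02 with an SD of 0.23. There Oas1a lay more than 1 SD above the median and Ifih1 more than 1 SD below it.

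**Figure D4:**
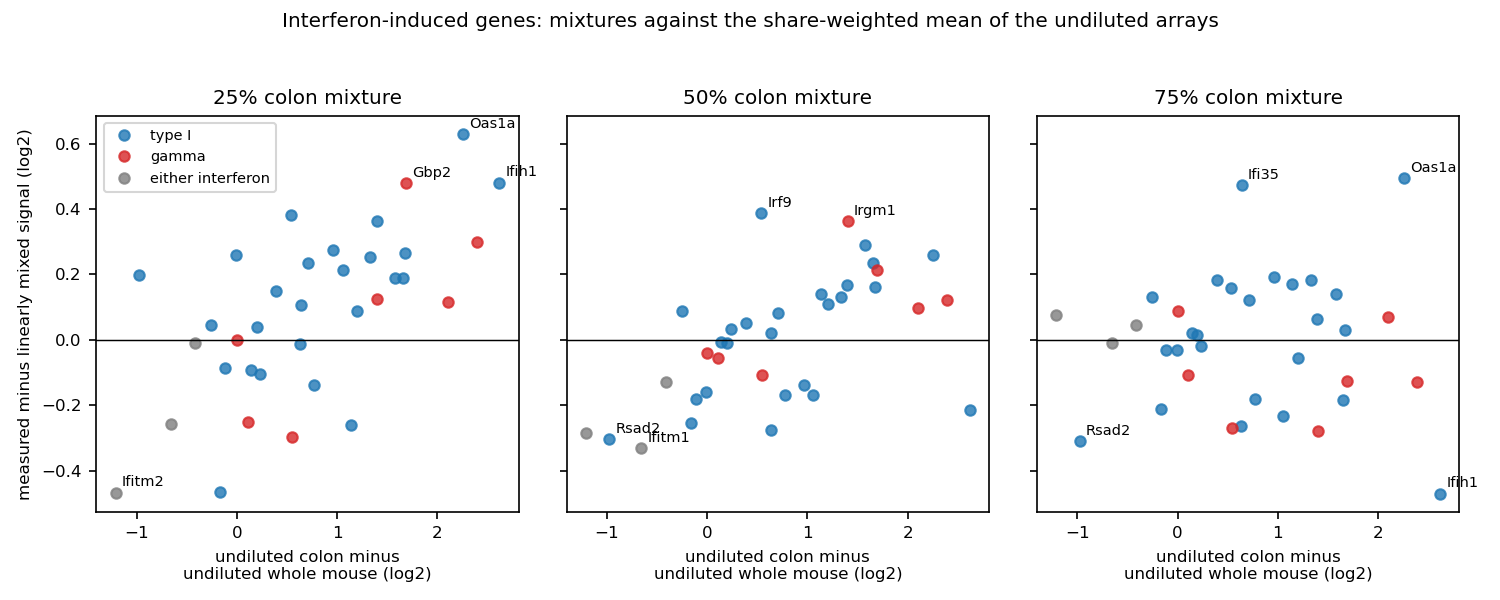
Measured minus linearly mixed signal (log2) of the 35 genes in the 25%, 50% and 75% mixtures, against the undiluted difference, colon minus whole mouse (log2). Points above 0 were brighter than the share-weighted mean. At 25% colon the genes higher in colon lie mostly above 0, with Oas1a at 0.63, and at 75% Ifih1 lies at -0.47.

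Upstream of these genes, the interferons themselves gave no call. Of 9 measured interferon genes 0 passed by limma, also at an unadjusted p under 0.05, and 5 had means under the lower quartile of all probe sets. The brightest, Ifna1, lay between 5.88 and 6.33 (adjusted p = 0.353). Ifng had 4.59, 4.19, 4.11, 4.19 and 4.19, and Ifnb1 had 5.46, 5.07, 4.84, 5.12 and 5.15, each highest in whole mouse. Neither passed (adjusted p = 0.305 and 0.586), and both had means under that quartile. Every Ifng signal lay within the range of the bacterial control probe sets (2.91 to 5.23), so the order of these arrays rests on dim signals. Among receptors 2 of 5 rose. Ifngr1, the ligand-binding chain for interferon gamma, had 9.23, 10.52, 10.94, 10.90 and 11.59 (slope 2.04 ± 0.39, adjusted p = 0.0290). Il10rb, shared by the receptors of interferon lambda and interleukin 10, had 7.95, 8.61, 8.98, 9.12 and 9.52 (slope 1.46 ± 0.18, adjusted p = 0.0104). The other gamma receptor chain, Ifngr2, lay between 8.18 and 8.46 (adjusted p = 0.917).

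Of 7 signalling genes 2 rose, the kinase Jak2 (slope 0.68, adjusted p = 0.0488) and the factor Irf2 (0.92, adjusted p = 0.0297), while Irf3 lay between 10.51 and 10.97 (adjusted p = 0.917). Of 6 inhibitors, Socs1 and Socs3 among them, 0 passed by limma, also at an unadjusted p under 0.05, and the brightest, Ptpn11, lay between 10.06 and 10.26 (adjusted p = 0.714). Of 10 genes that sense microbes or relay that signal 3 rose. Tlr3, the endosomal receptor for double-stranded RNA, had 5.25, 6.35, 6.45, 6.95 and 7.40 (slope 1.96 ± 0.27, adjusted p = 0.0133). Tlr4, the endotoxin receptor (1.03, adjusted p = 0.0290), and the kinase Tbk1 (0.65, adjusted p = 0.0420) were the others. Irf2 (4.65 to 5.68) and Tlr4 (4.66 to 5.85) had means under the lower quartile of all probe sets, so their calls rest on dim signals.

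Further interferon-induced genes outside the set gave rises and no falls. Of 14 other type I-induced genes 4 rose and none fell, with a median slope of 0.26. These were Oasl1 (1.68, adjusted p = 0.0454), Parp9 (1.37, adjusted p = 0.0112), the Ifi35 partner Nmi (1.21, adjusted p = 0.0249) and Tor3a (0.65, adjusted p = 0.0421). Of 16 other gamma-induced genes 6 rose and none fell, with a median slope of 0.33. Ido1, which degrades tryptophan, had the largest slope at 2.36 (adjusted p = 0.0195), and the GTPases Irgm2 (1.34, adjusted p = 0.00946) and Ifi47 (0.75, adjusted p = 0.0285) also rose. The immunoproteasome subunits Psmb9 (2.16, adjusted p = 0.0254) and Psmb8 (1.41, adjusted p = 0.00960) rose as well, while the brightest of that list, Psmb10, had a slope of 1.26 and an adjusted p of 0.0525. Over all 66 pathway genes 17 rose, 25.8% against 9.80% of all genes. None fell, against 14.5% of all genes. At an unadjusted limma p under 0.05, 22 rose and none fell, against 2451 and 2662 of all 12393 genes.

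**Figure D5:**
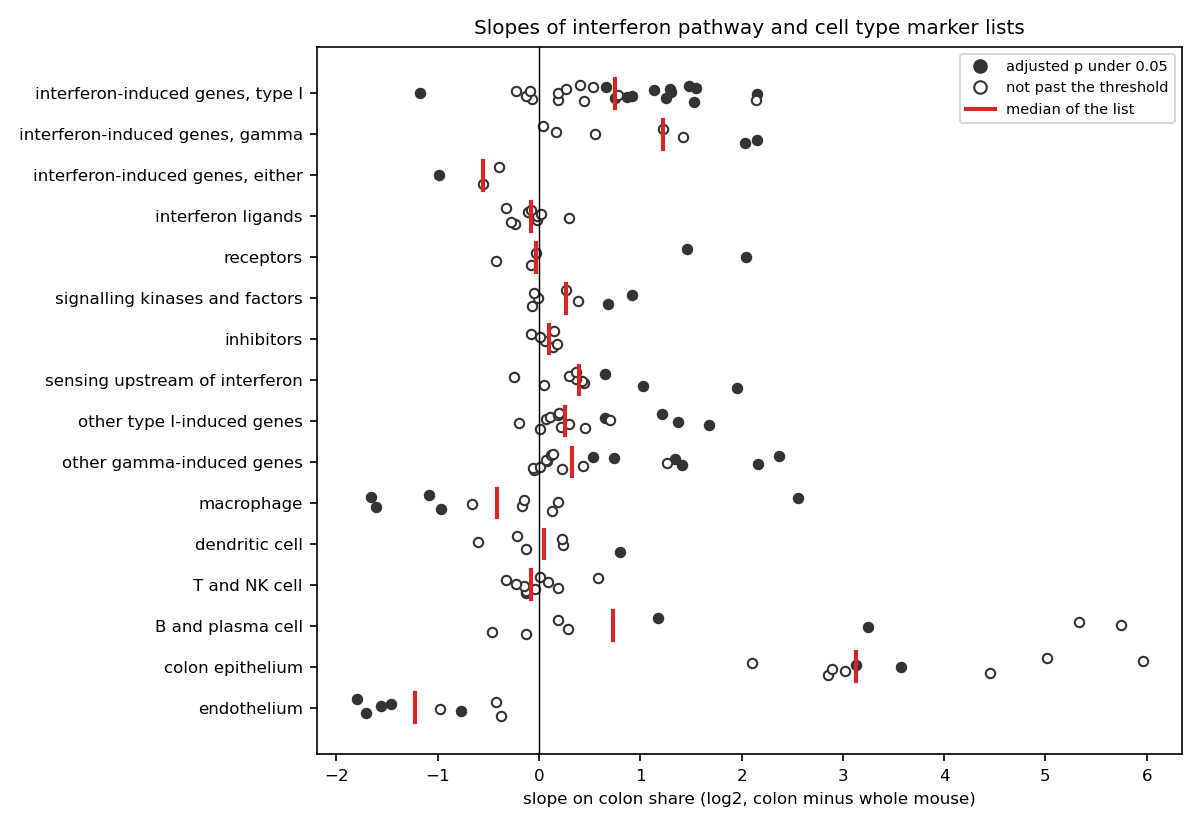
Slope on colon share (log2, colon minus whole mouse) of each gene in the 3 classes, in 7 lists of interferon pathway genes and in 6 lists of cell type markers; filled points passed the adjusted p of 0.05 and red bars are medians. Colon epithelium lies furthest right with a median of 3.13, endothelium furthest left of those drawn with -1.22, and T and NK cell markers sit around -0.08.

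Markers of cell types moved along the same axis, and their part in the interferon results was not tested. All 9 colon epithelium markers had positive slopes with a median of 3.13. Their summed linear intensity was 4803 in whole mouse, 40740 to 51437 in the mixtures and 60795 in colon. Only 2 of them rose by limma's adjusted p and 7 did not pass, although their undiluted differences ran from 2.52 to 7.39 log2. A gene that did not pass can therefore still differ widely between the RNAs. All 10 newborn organ markers had negative slopes and were at least 2-fold lower in undiluted colon, though only 4 fell by limma's adjusted p. Both RNAs thus carried the markers of their labels. Of 10 macrophage markers 1 rose (Cd14, slope 2.55) and 4 fell (Tyrobp the furthest, at -1.66), and their summed intensity was 4318 in colon, against 5780 in whole mouse. Of 10 T and NK cell markers 0 passed by limma (1 at an unadjusted p under 0.05), with a sum between 1120 and 1483 and with Zap70 brightest at 8.57 to 9.23. Of 6 dendritic cell markers only Itgax rose (0.80, adjusted p = 0.0155). Slopes were negative in 3 of them, among these the brightest, Flt3 (-0.13, adjusted p = 0.797). Of 8 B and plasma cell markers 2 rose, Blnk (3.25) and Xbp1 (1.18), and none fell. Slopes were negative in 2, Cd79b (-0.46, adjusted p = 0.0671) and Cd79a (-0.13, adjusted p = 0.744). Igha, of the IgA heavy chain, was at 12.79 to 13.59 on every array with colon RNA, against 6.81 without it (adjusted p = 0.128). Of 8 endothelial markers 5 fell and none rose, led by Sox18 at -1.80.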

How the data were processed

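The members and gene lists were chosen with earlier results of these data known, and the lists by role and class follow general knowledge of interferon biology. RNA of 5 mixes was measured on 1 Affymetrix MOE430 array each. The authors deposited log2 signals for 22690 probe sets, from RMA per the submitters' processing notes, which name no version. Array medians lay between 6.83 and 6.92. Exactly tied values between arrays occurred in 40.5% of probe sets and in 8 of the 35 genes.

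The 64 control probe sets were left out. Annotation gave 1 gene for 20380 of 22626 probe sets, several for 691 and none for 1555, and those with several were not named. Symbols were updated by gene identifier through RefSeq GRCm38.p6, which also gave the promoter windows.

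Each probe set's signals on all 5 arrays were fitted against colon share with limma 3.58.1 in R 4.3.3 (lmFit, eBayes, 2-sided, Benjamini-Hochberg over 22626, threshold 0.05). The fit was tested on simulated data with straight-line log2 changes and independent normal noise. That test does not cover signals that bend along the colon share, as many did here. A rule set which genes could be named. It allowed all members, and of each pathway list up to 5 genes past the threshold and the brightest other. Of each marker list it allowed the brightest and the largest called. Not all were named in the results, and Csf1r, Egfl7, Daxx, Myd88 and the colon epithelium and newborn organ genes were left out. Ifng, Ifnb1, Socs1, Socs3, Cd79a and Cd79b fall outside that rule and were named after their values were seen. The alternatives were median centring, leaving out probe sets under the 25th percentile of mean signal, linear intensity, an intensity trend, the mean of a gene's probe sets, and leaving out each array. Precision is limited by the number of arrays.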

Additional observations from a re-analysis of the deposited data

How the results depend on the processing

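Settings that kept all 5 arrays changed the number of interferon-induced genes that rose, 14 as reported, to between 10 and 18. All 16 called genes measured in a setting kept their direction there, and 9 of them passed in all 5 such settings. Linear intensity gave 10 rises and 0 falls at the adjusted p, and 20 and 3 at an unadjusted limma p under 0.05. Over all 22626 probe sets it gave 1578 rises (6.97%) and 1820 falls. The share that rose was 13.9% with centring and 13.4% of those kept with dim probe sets left out, against 8.63% as reported. With the mean of a gene's probe sets 13.3% of genes rose, against 9.80%. No unadjusted share over all probe sets was counted for linear intensity. Centring gave 18 rises, adding Gbp2, Ifi35, Irgm1 and Oas1a. The count of gamma-induced genes that rose was 4, against 2 as reported, with centred arrays, with dim probe sets left out and with the mean of a gene's probe sets. Over all probe sets centring gave 3148 rises and 2325 falls, against 1953 and 2456. The slope of Oas2 turned to 0.0194 with centring, and with mean probe sets that of Iigp1 turned to -0.0659 and that of Samhd1 to 0.35.

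Leaving out single arrays mattered more. In order of the colon share left out, the set held 4, 11, 4, 0 and 1 rises, and 0 to 1 falls. At an unadjusted limma p under 0.05, 20 rose and 3 fell without the 75% mixture, against 21 and 4 with every array. The share of all probe sets past that p was not counted for this fit. Type I-induced rises ran from 0 to 8 and gamma-induced rises from 0 to 3. The gamma median slope ran from 0.795 without whole mouse to 1.37, and the type I median, 0.65 without whole mouse, from 0.63 to 0.75. Over all probe sets there were 168 to 1306 rises and 829 to 1692 falls. Such fits have fewer samples and fewer residual degrees of freedom, which by itself lowers counts. Slopes crossed 0 for Irf9 (-0.0407 to 0.75), Oas2 (-0.33 to 0.41), Samhd1 (-0.19 to 0.0484) and Iigp1 (-0.00469 to 0.0887). The medians over the linear intensity fit are in other units and were not compared. No paired analysis was possible because each mix had 1 array.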
